A study of Homo sapiens with 8 samples.

Results

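The genes described here encode 8 antiviral effectors: RSAD2 (viperin), BST2 (tetherin), PLSCR1, ISG20, LAMP3, XAF1, SAMHD1 and ADAR. They were followed in CAOV-3, OVCAR-3, SKOV-3 and DOV-13, which are 4 established lines of human ovarian cancer cells. All probe sets whose only symbol in the platform annotation is that of a member were taken, which gave 10 of 22215 probe sets, 2 each for PLSCR1 and ISG20 and 1 for each other gene. Each line had 1 Affymetrix array of cells given pI:pC and 1 array of untreated cells, so that the treated and the untreated group held 4 arrays each. pI:pC (polyriboinosinic:polyribocytidylic acid) is a man-made double-stranded RNA that stands in for the RNA of viruses. Cultures received it in their medium at differing concentrations, and the labels do not tell which dose or how long an exposure each array stands for. Dose, time and cell line therefore cannot be told apart in any comparison of lines. Values are deposited log2 expression levels, so that a difference of 1 is a doubling of the measured level.

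Cells that sense double-stranded RNA secrete type I interferon, whose receptor activates a transcription factor complex that contains IRF9. This complex binds interferon-stimulated response elements (ISRE) in promoters and raises a broad set of antiviral genes, and the related interferon regulatory factors can bind the same elements directly. The products act at different steps of infection. RSAD2 is a radical SAM enzyme that makes a chain-terminating nucleotide, ISG20 is an exonuclease of single-stranded RNA, SAMHD1 breaks down deoxynucleotides, and ADAR edits adenosine to inosine in double-stranded RNA. BST2 tethers budding virions to the cell surface, PLSCR1 is a phospholipid scramblase of the plasma membrane, and LAMP3 is a lysosomal membrane protein known as a marker of mature dendritic cells. XAF1 binds the apoptosis inhibitor XIAP and favours cell death.

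The promoters are shown because groups of members moved together, and the ISRE is the textbook route by which interferon signals reach such genes. The RefSeq promoter table (build GRCh38.p14) holds windows for 7 of the 8 genes, and LAMP3 is not among them. The 250 bases before each start were searched on both strands for the ISRE core, GAAA and GAAA with any 2 bases between them, and capitals mark the matches. RSAD2 is shown for chr2:6877527-6877776 (+), BST2 for chr19:17405631-17405880 (-), PLSCR1 for chr3:146544608-146544857 (-) and ISG20 for chr15:88638766-88639015 (+), windows that held a match. XAF1, chr17:6755796-6756045 (+), is set beside them as a gene with no exact match, and each sequence is read 5′ to 3′ on the gene's strand.
RSAD2: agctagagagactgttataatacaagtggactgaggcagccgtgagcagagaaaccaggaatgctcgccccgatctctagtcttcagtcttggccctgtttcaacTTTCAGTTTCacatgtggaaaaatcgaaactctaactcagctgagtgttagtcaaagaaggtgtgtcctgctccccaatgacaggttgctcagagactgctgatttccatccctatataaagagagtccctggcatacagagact
BST2: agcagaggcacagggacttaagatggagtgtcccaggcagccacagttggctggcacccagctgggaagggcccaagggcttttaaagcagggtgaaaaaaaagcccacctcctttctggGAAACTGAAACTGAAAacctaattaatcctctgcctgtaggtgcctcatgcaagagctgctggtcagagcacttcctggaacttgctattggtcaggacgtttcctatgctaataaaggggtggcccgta
PLSCR1: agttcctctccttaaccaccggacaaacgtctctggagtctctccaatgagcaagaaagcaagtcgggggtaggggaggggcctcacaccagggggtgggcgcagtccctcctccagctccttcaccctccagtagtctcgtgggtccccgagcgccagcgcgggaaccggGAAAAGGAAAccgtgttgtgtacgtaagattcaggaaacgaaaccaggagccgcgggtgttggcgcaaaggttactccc
ISG20: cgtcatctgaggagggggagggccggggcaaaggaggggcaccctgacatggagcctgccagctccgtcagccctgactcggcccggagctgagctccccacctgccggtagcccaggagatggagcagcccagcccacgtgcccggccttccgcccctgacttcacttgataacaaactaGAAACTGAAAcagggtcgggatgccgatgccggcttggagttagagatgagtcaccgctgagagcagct
XAF1: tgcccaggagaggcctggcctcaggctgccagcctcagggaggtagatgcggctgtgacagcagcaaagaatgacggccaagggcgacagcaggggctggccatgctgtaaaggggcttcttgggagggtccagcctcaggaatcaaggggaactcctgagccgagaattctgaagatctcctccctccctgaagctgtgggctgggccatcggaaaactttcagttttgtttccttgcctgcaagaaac

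Counting the base before the start as -1, the match began at -145 in RSAD2, at -79 in PLSCR1 and at -69 in ISG20. The table gives PLSCR1 a second start further downstream, from which the same match begins at -91. In BST2 matches began at -130 and at -124 and overlapped, so that the run of capitals there holds both. In RSAD2 the match lay on the opposite strand. No match was found in the windows of XAF1, SAMHD1 and ADAR, or in the other RSAD2 window. The XAF1 window shown does hold tttcagtttt, which differs from the core on the opposite strand in its last letter alone. Lack of an exact match is therefore not lack of a similar element. The ISRE core was thus found in 4 of the 7 members with a window, against 3.71% of all 27305 genes of the table and 3.02% of its 35116 windows of the same length. These are matches of letters in a short window and say nothing of binding.

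The main pattern was a split by cell line. All 10 probe sets were higher after pI:pC in CAOV-3 and in OVCAR-3, as were 23.8% of all probe sets, while in SKOV-3 and DOV-13 8 and 5 were higher, mostly by less than 0.2. Over the 10 probe sets CAOV-3 had a median difference of 1.76 and OVCAR-3 of 0.89. It was near 0 in the remaining lines, at 0.03 in SKOV-3 and 0.00 in DOV-13. The median over all probe sets lay between -0.01 and 0.04 in the 4 lines. A probe set was counted as higher where the treated array exceeded the untreated array by 1 or more and the higher value reached the median probe set of that pair. By this count 8 member probe sets were higher in CAOV-3, where 0.725% of all probe sets were, and 3 in OVCAR-3, where 0.144% were. In SKOV-3 and DOV-13 the count was 0 (background 0.0045% and 0.018%), and no member was counted as lower in any line. A line has 1 array per condition, so these differences have no replicate check and describe the array pairs. As a scale, 95% of all probe sets differed by between -0.46 and 0.51 in CAOV-3, the widest of the 4 pairs, and between -0.34 and 0.34 in OVCAR-3. In bulk RNA, a response of fewer cells and a smaller response per cell cannot be told apart.

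**Figure D1:**
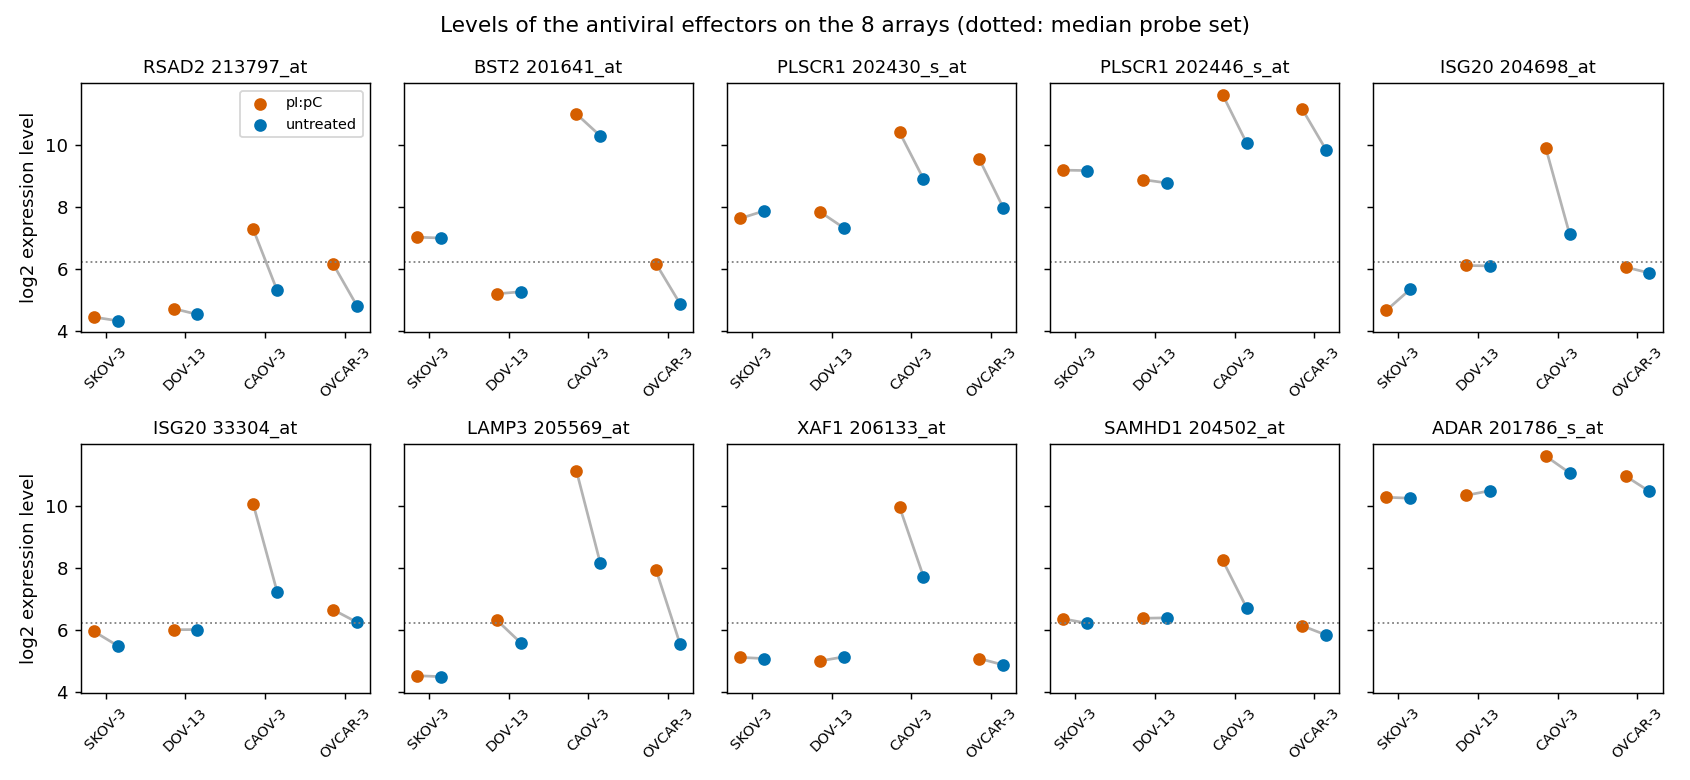
Log2 expression level (vertical axis) of each of the 10 probe sets in each cell line (horizontal axis), with pI:pC in orange left of untreated in blue, 1 array per point. CAOV-3 has the highest untreated point in every panel, and LAMP3, RSAD2 and PLSCR1 are higher after pI:pC in CAOV-3 and in OVCAR-3. The dotted line is the median probe set.

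RSAD2, PLSCR1 and LAMP3 were higher in CAOV-3 and in OVCAR-3. LAMP3 read 11.14 in treated and 8.15 in untreated CAOV-3, a difference of 2.99 (7.94-fold) that ranked 9 among all 22215 probe sets. In OVCAR-3 it read 7.93 in treated and 5.55 in untreated cells, a difference of 2.39 (5.24-fold) and rank 12. LAMP3 was also the member with the largest difference in DOV-13, the lysosomal gene reading 6.32 in treated and 5.59 in untreated cells (0.73, rank 19). In SKOV-3 it read 4.52 in treated and 4.49 in untreated cells, far under the median probe set of 6.23.

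PLSCR1, the membrane scramblase, has 2 probe sets, and both gave the same picture in CAOV-3 and OVCAR-3. Probe set 202446_s_at read 11.63 in treated and 10.07 in untreated CAOV-3, and 11.16 in treated and 9.84 in untreated OVCAR-3. Probe set 202430_s_at read 10.42 in treated and 8.91 in untreated CAOV-3, and 9.55 in treated and 7.99 in untreated OVCAR-3. The differences were thus 1.56 and 1.5 in CAOV-3 and 1.32 and 1.57 in OVCAR-3, between 2.49-fold and 2.96-fold. The probe sets parted in DOV-13, where 202430_s_at read 7.85 in treated and 7.33 in untreated cells (0.52, rank 91) and 202446_s_at 8.89 in treated and 8.78 in untreated cells (0.11). In SKOV-3 202430_s_at read 7.63 in treated and 7.88 in untreated cells, and 202446_s_at 9.19 in treated and 9.18 in untreated cells, so that no common direction was seen there.

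RSAD2, which encodes viperin, was dim on 7 of the 8 arrays. It read 7.28 in treated and 5.31 in untreated CAOV-3, a difference of 1.97 (3.93-fold, rank 38). In OVCAR-3 it read 6.17 in treated and 4.82 in untreated cells, a difference of 1.35 (2.56-fold, rank 26) whose higher value stayed just under the median probe set of 6.19, so that it was not counted there. Treated and untreated cells read 4.45 and 4.33 in SKOV-3 and 4.72 and 4.53 in DOV-13.

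ISG20, XAF1 and SAMHD1 had differences of 1.53 or more in CAOV-3 and of at most 0.47 in any other line. Probe set 33304_at of the exonuclease gene ISG20 read 10.06 in treated and 7.23 in untreated CAOV-3, and 204698_at read 9.91 in treated and 7.12 in untreated CAOV-3. The differences of 2.83 and 2.79 (7.11-fold and 6.93-fold) ranked 11 and 13, and the probe sets were within 0.04 of each other. In OVCAR-3 33304_at read 6.65 in treated and 6.24 in untreated cells (0.41), and 204698_at 6.06 in treated and 5.87 in untreated cells (0.19). In DOV-13 both lay between 6.0 and 6.12 on both arrays. In SKOV-3 they went opposite ways, with 5.95 in treated and 5.48 in untreated cells for 33304_at and 4.66 in treated and 5.35 in untreated cells for 204698_at, all under the median probe set. Those differences of 0.47 and -0.68 and the 0.41 in OVCAR-3 lay outside the range that held 95% of all probe sets of their pair, -0.39 to 0.35 in SKOV-3. No common direction can be given for ISG20 in SKOV-3.

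XAF1, the partner of XIAP, was above the median probe set in CAOV-3 alone. It read 9.97 in treated and 7.72 in untreated CAOV-3, a difference of 2.25 (4.76-fold, rank 28). On the 6 other arrays it lay between 4.87 and 5.13, all under the median probe set, and its differences were 0.20 in OVCAR-3, 0.04 in SKOV-3 and -0.13 in DOV-13. SAMHD1, the deoxynucleotide hydrolase, read 8.24 in treated and 6.71 in untreated CAOV-3 (1.53, 2.89-fold, rank 74). It read 6.13 in treated and 5.83 in untreated OVCAR-3 (0.30), 6.36 in treated and 6.21 in untreated SKOV-3 (0.15) and 6.37 in treated and 6.39 in untreated DOV-13 (-0.01). Outside CAOV-3 its differences lay within the range that held 95% of all probe sets of their own pair.

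BST2 was the member whose difference was larger in OVCAR-3 than in CAOV-3 by more than 0.5. It read 6.17 in treated and 4.88 in untreated OVCAR-3, a difference of 1.29 (2.44-fold, rank 30), and 11.01 in treated and 10.30 in untreated CAOV-3, a difference of 0.71 (1.63-fold, rank 322). Its treated level in OVCAR-3 was just under the median probe set of 6.19, so that BST2 was counted in neither line. In SKOV-3 tetherin read 7.03 in treated and 7.0 in untreated cells, and in DOV-13 5.20 in treated and 5.27 in untreated cells. Treated OVCAR-3 thus stayed under untreated SKOV-3, a line in which BST2 hardly differed.

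ADAR had the smallest differences of the members in CAOV-3, of similar size in CAOV-3 and OVCAR-3. The editing enzyme read 11.61 in treated and 11.07 in untreated CAOV-3 (0.54, 1.46-fold, rank 501) and 10.97 in treated and 10.47 in untreated OVCAR-3 (0.50, 1.41-fold, rank 177). In SKOV-3 it read 10.28 in treated and 10.25 in untreated cells, and in DOV-13 10.34 in treated and 10.49 in untreated cells. ADAR has a constitutive and an interferon-inducible isoform, and the 1 probe set is not assigned to either here.

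**Figure D2:**
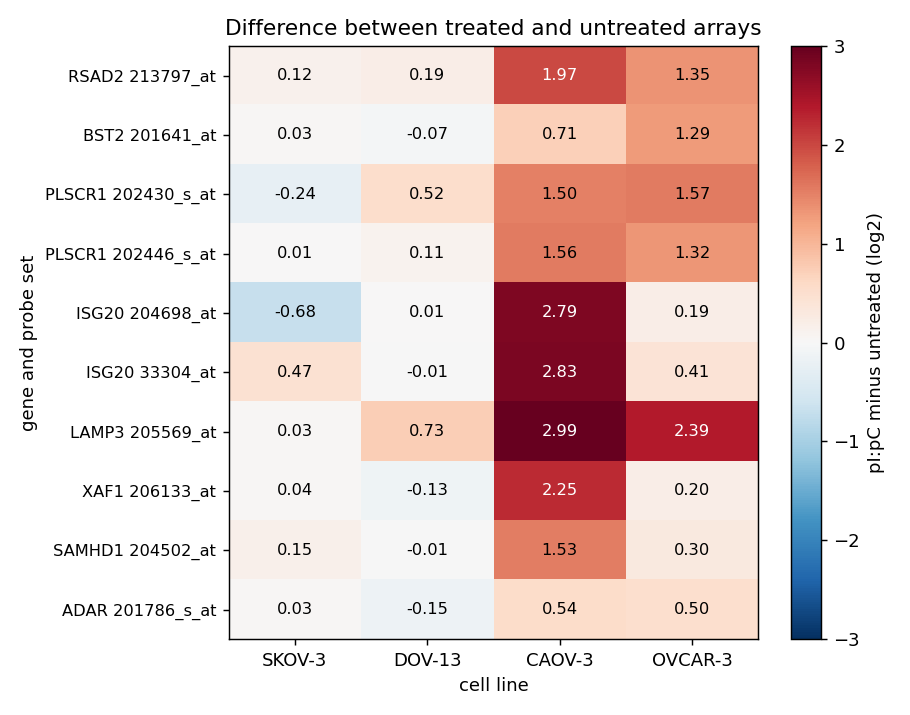
Treated minus untreated log2 level (colour and printed number) for each probe set (rows) in each cell line (columns). Values of 1.5 or more fill the CAOV-3 column except for BST2 and ADAR, and in OVCAR-3 they are reached by LAMP3 and by 1 probe set of PLSCR1.

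Which line an effector followed was read from the gap between its differences, with a margin of 0.5. Of the 8 probe sets counted in CAOV-3 or OVCAR-3, 6 followed CAOV-3, those of ISG20, XAF1, SAMHD1, RSAD2 and LAMP3, and the 2 of PLSCR1 were alike in both lines. Among all 166 probe sets counted in either line, 81.9% followed CAOV-3, 7.23% followed OVCAR-3 and 10.8% were alike, so the share of the members is near the background. The size of the gap divided them further. It was 2.60 and 2.42 for ISG20, 2.05 for XAF1 and 1.23 for SAMHD1, but 0.62 for RSAD2 and 0.60 for LAMP3, which stand just outside the margin. None followed OVCAR-3 by this count. With no demand on the level BST2 did, with a gap of -0.58.

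**Figure D3:**
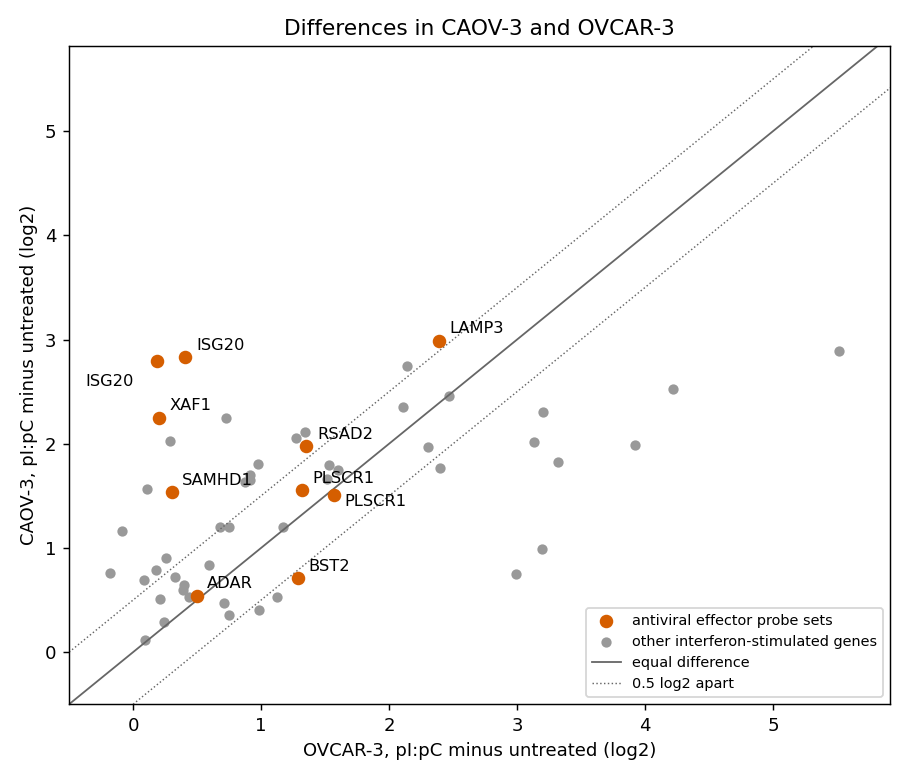
Treated minus untreated log2 level in CAOV-3 (vertical axis) against OVCAR-3 (horizontal axis) for the 10 member probe sets (orange, named) and 45 other interferon-stimulated genes (grey). ISG20, XAF1 and SAMHD1 lie near the vertical axis, with at most 0.41 in OVCAR-3, while PLSCR1 and ADAR lie between the dotted lines that mark a gap of 0.5.

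The untreated levels already set CAOV-3 apart. CAOV-3 had the highest untreated level for all 10 probe sets, against 22.8% of all probe sets. The distance to the next line was 3.30 for BST2, 2.60 for XAF1, 2.57 for LAMP3, 1.01 and 0.98 for ISG20 and 0.93 for PLSCR1 202430_s_at. It was 0.57 for ADAR, 0.49 for RSAD2, 0.33 for SAMHD1 and 0.23 for PLSCR1 202446_s_at. The last 3 lie inside the range that held 95% of all differences of the CAOV-3 pair, and with 1 untreated array per line they give no order.

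For 7 of the 10 probe sets the untreated level in CAOV-3 was above every treated level of the other lines, as it was for 21.4% of all probe sets. The margin was 0.10 for ADAR, 0.22 for LAMP3 and 0.34 for SAMHD1, which lie inside the same range and give no order. The exceptions were RSAD2 and both probe sets of PLSCR1, for which treated OVCAR-3 was above untreated CAOV-3 by 0.86, 0.64 and 1.08. BST2 had the widest range of untreated levels, 10.30 in CAOV-3, 7.0 in SKOV-3, 5.27 in DOV-13 and 4.88 in OVCAR-3. For LAMP3 the order was 8.15 in CAOV-3, then 5.59 in DOV-13 and 5.55 in OVCAR-3, which did not differ beyond that scale, and 4.49 in SKOV-3. The untreated levels of XAF1 in the other lines, between 4.87 and 5.13, have no order. The same holds for ADAR, between 10.25 and 10.49 in the other lines.

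Tested over the 4 lines, no member separated treated from untreated cells. With the cell line as a block, limma passed 0 of 22215 probe sets (0%) at an adjusted p under 0.05, and 855 at an unadjusted p under 0.05. The adjusted p was 0.996 for each member. At an unadjusted p under 0.05, 5 of the 10 probe sets passed, all higher, against 2.35% of all probe sets that were higher at that level. They were those of LAMP3, RSAD2, PLSCR1 and BST2. The mean change was 1.54 ± 1.38 for LAMP3 (SD, n = 4 lines), 0.91 ± 0.91 for RSAD2, 0.84 ± 0.86 (202430_s_at) and 0.75 ± 0.80 (202446_s_at) for PLSCR1 and 0.49 ± 0.63 for BST2. It was 0.92 ± 1.29 (33304_at) and 0.58 ± 1.52 (204698_at) for ISG20, 0.59 ± 1.12 for XAF1, 0.49 ± 0.71 for SAMHD1 and 0.23 ± 0.34 for ADAR. LAMP3, RSAD2 and PLSCR1 202446_s_at were higher in 4 of 4 lines, as were 6.74% of all probe sets, and the other 7 probe sets in 3 of 4.

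These means rest on CAOV-3 or OVCAR-3. Without CAOV-3 the mean change was 0.04 for XAF1, 0.14 for SAMHD1, 0.29 for ISG20 33304_at, -0.16 for ISG20 204698_at, 0.55 for RSAD2, 0.61 for PLSCR1 202430_s_at, 0.48 for PLSCR1 202446_s_at, 0.13 for ADAR and 1.05 for LAMP3. Without OVCAR-3 it was 0.22 for BST2 and 0.14 for ADAR. Without SKOV-3 it was 1.0 for ISG20 204698_at and without DOV-13 0.36 for ADAR.

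The level of every member, as the mean of a line's treated and untreated array, differed between lines in the moderated F test of limma. This test ran over the line terms of the same fit and took the spread of the change between lines as its error. A response in 1 line enters such a mean, and untreated levels alone were not tested. The F test passed for 10 of 10 probe sets, as it did for 65.5% of all probe sets. The adjusted p was 5.81e-06 for BST2 and lay between 0.000467 and 0.0158 for the others. Without CAOV-3 the same test passed for 8, and for 12910 of all 22215 probe sets. The adjusted p was then 0.598 for XAF1 and 0.0895 for ADAR. With a trend and robust variance only 3 of the 10 passed, those of BST2, ADAR and XAF1, while 14674 of all 22215 probe sets did. Split by sums of squares over the 8 arrays, the cell line accounted for between 61.1% (RSAD2) and 97.2% (BST2) of the spread. This part uses the same mean of both arrays, so it is not a share of untreated level alone. The mean change after pI:pC took 22.3% in RSAD2 and 1.25% in BST2. The part of the change that differed between lines took 19.9% in ISG20 204698_at, 19.7% in SAMHD1, 8.05% in LAMP3 and 1.57% in BST2.

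**Figure D4:**
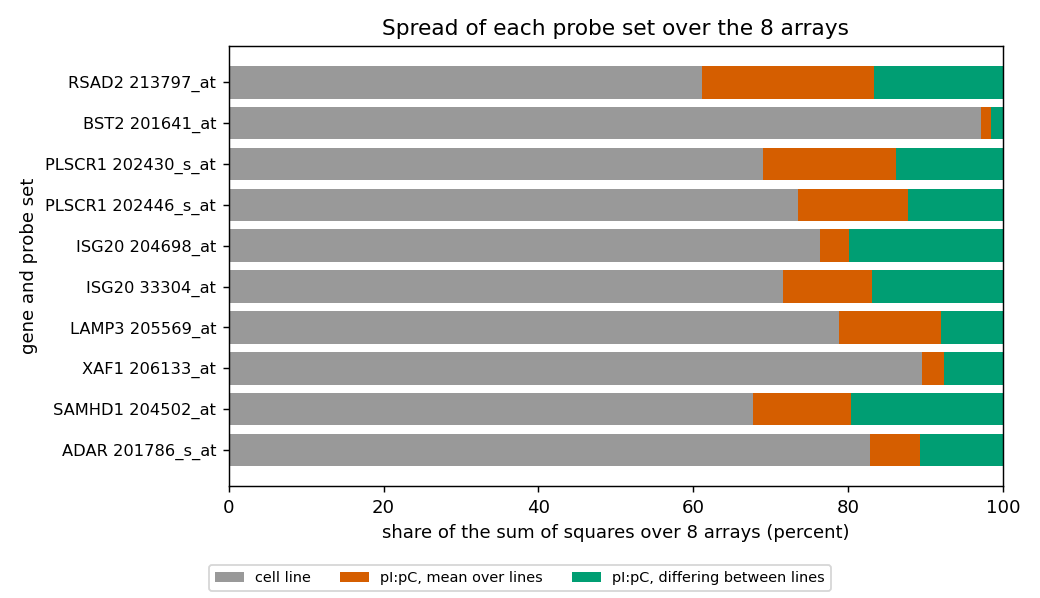
Share of each probe set's sum of squares over the 8 arrays (horizontal axis, percent) that falls to the cell line (grey), to the mean pI:pC change over lines (orange) and to pI:pC changes that differ between lines (green). The grey part is the longest in every row, from 61.1% in RSAD2 to 97.2% in BST2.

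The members differed in which genes they moved with. For each member with a difference of 1 or more, the 3 genes nearest over the 4 differences were taken, by the root mean square distance in log2 units. RSAD2 and PLSCR1 were near other interferon-stimulated genes. IFIT3 lay 0.08 from RSAD2. HERC5, which attaches ISG15 to proteins, lay 0.18 from RSAD2 and 0.17 from PLSCR1, and SAMD9 0.19 and 0.17. PARP12 lay 0.20 from PLSCR1. LAMP3 had no gene as near, with OAS3 at 0.40, OAS1 at 0.47 and the RNA sensor gene IFIH1 at 0.51. The distance takes in the size of the differences as well as their pattern. LAMP3 had the largest difference of the members in CAOV-3 (2.99) and in OVCAR-3 (2.39). BST2 was nearest to the kinase gene EIF2AK2 (0.14), IFITM3 (0.23) and TRIM14 (0.23). With each member only 4 differences enter, from 8 shared arrays.

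The CAOV-3 group had other neighbours. XAF1 lay nearest to the matrix gene TNC (0.09), OLR1 (0.10), a scavenger receptor gene, and the elastase inhibitor gene PI3 (0.15). SAMHD1 lay nearest to the integrin gene ITGA2 (0.04), CITED2 (0.11) and the cathepsin gene CTSS (0.11). ISG20 lay nearest to the complement gene CFB (0.22), the kallikrein gene KLK10 (0.26) and the cytokine gene IL6 (0.28). None of these 9 genes stands on the list of other interferon-stimulated genes used here, while 8 of the 9 places beside RSAD2, PLSCR1 and BST2 are held by genes on it, the exception being TRIM14, and so are all 3 beside LAMP3. This contrast is one of the 3 nearest genes only. Listed genes were also unevenly spread over the lines. Of all 111 genes counted as higher in CAOV-3, 27 stand on the list, and of all 27 counted in OVCAR-3, 19 do. Of the 91 genes that followed CAOV-3, 12 stand on it. Members higher in both lines thus had mostly listed genes to lie near, and members of the CAOV-3 group mostly unlisted ones. Farther out, the listed interferon-stimulated gene RTP4 stood in place 6 from XAF1, at 0.18, the distance of HERC5 from RSAD2. RTP4 was in place 27 from SAMHD1 (0.25) and IFI35 in place 7 from ISG20 (0.35). Among the members, RSAD2 and PLSCR1 202446_s_at were the closest pair (0.22), closer than the 2 probe sets of PLSCR1 (0.27). LAMP3 and ADAR, the members with the largest and the smallest difference in CAOV-3, were the farthest apart (1.61).

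The rest of the interferon response gave the frame. Of 45 measured other interferon-stimulated genes, 27 were counted as higher in CAOV-3, 19 in OVCAR-3, 1 in SKOV-3 and 0 in DOV-13, and 0 as lower in any line. Of all 11963 genes, 0.928% were counted as higher in CAOV-3 and 0.226% in OVCAR-3. In SKOV-3 1 of all genes was, and in DOV-13 2 were. The 45 genes had a median difference of 1.57 in CAOV-3, beside -0.02 for all genes, and 0.91 in OVCAR-3, beside -0.01. Of the 45, 0 passed over the 4 lines by limma. CAOV-3 had the highest untreated level for 33 of the 45 (73.3%), against 23.9% of all genes. By the same margin 12 followed CAOV-3, 10 followed OVCAR-3 and 8 were alike. Among all 11963 genes, which include this list, 91 followed CAOV-3, 11 followed OVCAR-3 and 13 were alike. IFI44L read 10.73 in treated and 7.84 in untreated CAOV-3, and 9.74 in treated and 4.22 in untreated OVCAR-3, and so followed OVCAR-3, as did IFIT1, IFI44 and the GTPase gene MX1. IFI44L differed by 5.52 in OVCAR-3, where the largest difference of a member was the 2.39 of LAMP3.

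Of 14 measured genes of interferon signalling, IRF9 and IRF7 were counted in OVCAR-3, where 0.226% of all genes were. IRF7 and TLR3 were counted in CAOV-3, where 0.928% of all genes were. Of the 14, 0 passed over the lines. IRF9, the DNA-binding part of the interferon complex, read 10.22 in treated and 9.42 in untreated CAOV-3 and 8.97 in treated and 6.86 in untreated OVCAR-3. IRF7 read 10.66 in treated and 9.51 in untreated CAOV-3 and 8.36 in treated and 7.08 in untreated OVCAR-3. The double-stranded RNA receptor TLR3 read 7.67 in treated and 6.67 in untreated CAOV-3 and lay between 3.82 and 4.53 on the 6 other arrays. Its adaptor TICAM1 lay between 5.66 and 6.28 on all 8 arrays.

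Of 11 measured genes related to the members, namely members of their protein families and XIAP, the partner of XAF1, 0 were counted in any line. Of all genes only 0.928% were counted as higher in CAOV-3 and 0.226% in OVCAR-3, so a count of 0 is near the background. Over the 11 genes CAOV-3 had a median difference of 0.03 and OVCAR-3 of -0.02. LAMP2 had a mean change of -0.14 ± 0.20 (SD, n = 4 lines), the exonuclease gene AEN 0.15 ± 0.23, and the editing relatives ADARB2 and ADARB1 0.12 ± 0.18 and -0.09 ± 0.16. SAMHD1 and ADAR are also genes of Aicardi-Goutieres syndrome, an inherited interferon disease. Of the 5 such genes measured, IFIH1 and SAMHD1 were counted in CAOV-3 and IFIH1 in OVCAR-3, beside 0.928% and 0.226% of all genes. RNASEH2A had a mean change of -0.05 ± 0.15.

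The labelled identity of the lines was looked at through marker genes. Leukocyte markers, of interest since LAMP3 marks dendritic cells, had line medians between 4.80 and 5.00 in treated and between 4.76 and 4.94 in untreated cells, and PTPRC (CD45) lay between 4.11 and 4.41 on all 8 arrays. Of the 13 measured, CD83 reached the median probe set in treated and in untreated cells, and CD14 in untreated cells. CD14 read 6.15 in treated and 7.06 in untreated CAOV-3 and at most 4.83 elsewhere, opposite in direction to the members. CCR7 and CD2 had mean changes of -0.11 ± 0.19 and 0.14 ± 0.14 (SD, n = 4 lines). Keratin genes KRT8, KRT18 and KRT19 were at 10.41 or more on all 8 arrays. The epithelial genes EPCAM, MUC1 and CLDN4 were higher in CAOV-3 and OVCAR-3 than in SKOV-3 and DOV-13, but the list did not run one way. KRT19 was lower in both lines, at 10.75 in untreated CAOV-3 and 10.44 in untreated OVCAR-3 beside 11.15 in untreated SKOV-3 and 11.68 in untreated DOV-13, and PAX8 read 8.11 in untreated CAOV-3 and 10.60 in untreated OVCAR-3, beside 10.01 in untreated SKOV-3 and 8.73 in untreated DOV-13. EPCAM was at 12.55 in treated and 12.58 in untreated CAOV-3 and at 5.94 in treated and 5.42 in untreated DOV-13. MUC16, which encodes CA125, was at 9.52 in treated and 9.59 in untreated OVCAR-3 and at most 5.38 elsewhere. The part of these identity differences in the response was not tested.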

How the data were processed

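Total RNA of 4 cell lines with and without pI:pC was hybridised to 8 arrays. The authors deposited log2 expression levels per probe set, and the submitters' processing notes name RMA as the method; its version is not given in the sources used here. Array medians lay between 6.19 and 6.30. Precision is limited by how few arrays there are. The file holds 22277 probe sets, of which 62 array controls were left out. In the platform annotation 19064 of the rest carry 1 symbol, 1043 several and 2108 none. Lists used the probe set with the highest mean for each of 11963 genes.

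Groups and lines came from the labels. The line pairs the arrays: deviations from the group means correlated at 0.936 to 0.965 within each pair. limma (version 3.58.1, R version 4.3.3) fitted line and treatment to all probe sets, with 3 residual and 4.59 prior degrees of freedom. Benjamini-Hochberg adjustment ran over all probe sets. The size of the fitted change was checked on simulated data in which all lines changed alike. That check does not tell how the test treats a change confined to some lines. Whether an array held 1 culture is not stated. The treatment test sets the mean change against its spread between lines. The F test sets the differences of line means against that same spread. Named genes are the members, their 3 nearest genes and for each list the 4 genes whose mean change was largest in size. PTPRC, keratin and other genes named beside these were chosen after their values were seen. The members and lists were chosen with earlier results of these data known. A second promoter motif that was searched is not reported here. Alternatives were another normalization, filter, threshold or margin, no block, and leaving out each line.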

Additional observations from a re-analysis of the deposited data

Results flagged for a closer look

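In 6 of 30 sets of 4 values (treated levels, untreated levels and differences of the 10 probe sets) 1 line stood far from the other lines by Dixon's ratio, and in all 6 it was CAOV-3. Chance flags about 1 in 20 such sets, and the sets share arrays. For XAF1 these were the treated level of 9.97, the untreated level of 7.72 and the difference of 2.25. For ISG20 33304_at they were the treated level of 10.06 and the difference of 2.83, and for SAMHD1 the treated level of 8.24. ISG20 204698_at went opposite ways in CAOV-3 (2.79) and SKOV-3 (-0.68). That difference between lines was not tested, and the other ISG20 probe set differed by 0.47 in SKOV-3.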

How the results depend on the processing

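Of 96 mean changes of single member probe sets under the alternatives, 95 kept their sign. The exception was ISG20 204698_at, at -0.16 without CAOV-3. Many of the 96 could not differ. Dropping the block, filtering, 1 probe set per gene, and a trend and robust variance leave a mean change as it is. Median centring shifts all of them alike. The sign was thus mainly open to another normalization and to leaving out a line. None passed the threshold under any alternative, so that side was not informative. Leaving out a line gave mean changes between 0.22 and 0.67 for BST2, 0.04 and 0.83 for XAF1, 0.14 and 0.66 for SAMHD1 and 1.05 and 2.04 for LAMP3. The count of probe sets that passed limma's test over the lines was 0 under all alternatives, also with no replicate block. At an unadjusted p under 0.05 there were 855 probe sets with the line as a block, 19 without it and 1504 without SKOV-3. Only 3 of the 10 member probe sets passed the F test between lines with a trend and robust variance, where 14674 of all 22215 probe sets did. The cause was not tested. Without CAOV-3 8 member probe sets passed, and 12910 of all. With a difference of 0.5 in place of 1, 2 member probe sets were counted in DOV-13, beside 0.347% of all probe sets. In OVCAR-3 5 were counted with no level filter, beside 0.162% of all probe sets. With no level filter, chosen after seeing the data, 1 followed OVCAR-3. With a margin of 1, 4 were alike in both lines. Since the background signal is not given, little can be said of dim levels, such as those of RSAD2 and, in untreated OVCAR-3, of BST2 (4.88) and LAMP3 (5.55), which enter the gaps between the lines.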
